A study of Homo sapiens with 4 samples.

Results

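The genes described here are 10 markers by which astroglial and glioma cells are commonly recognised: GFAP, FABP7, SLC1A3, NES, SOX2, OLIG2, CHI3L1, S100B, VIM and CD44. They were found by their symbols in the authors' deposited table, which held a row for each of the 10 among its 19749 genes. The study treated U87 cells, an established human glioblastoma line, for 24 h with 5 µM of the small molecule YZ129 or with the vehicle DMSO, and sequenced their poly(A)-selected RNA (n = 2 libraries per group). All cells grew in DMEM with fetal bovine serum. The series title names inhibitors of a pathway from HSP90 through calcineurin to NFAT. U87 is a single line kept in culture for decades, and commonly distributed stocks of it are known not to match the original tumour; the labels do not name the stock. The labels do not say whether a group's libraries were grown as separate cultures, so p-values cover the spread between libraries, which may be technical. The authors' mean level averages 8 libraries, 4 of them outside this comparison. FABP2 had 0 reads in each of the 4 libraries compared, by the recovery of reads described below. It still had a log2 fold change (-0.002) and a standard error (0.468), so the authors' fit took in libraries outside the comparison. How far those shaped the estimate of the spread behind the standard errors and p-values is unknown.

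The authors' deposited table gives one comparison and no values per library. For each gene it has a mean level (normalized reads, averaged over libraries), a log2 fold change ± its standard error (SE), and p-values. The authors' folds are shrunken towards 0, which makes the change of genes with few reads look smaller. A gene was counted as changed at the authors' adjusted p under 0.05, the Benjamini-Hochberg adjusted p of their fit. By this rule 1908 of 14812 tested genes changed (12.9%): 1132 were lower with YZ129 (7.64%) and 776 were higher (5.24%), and the median log2 fold change of all tested genes was -0.05 in the authors' deposited table.

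Which group was the numerator is not stated, and DMSO comes first in the comparison's name. A positive value was read as higher with YZ129, because blocking HSP90 is known to free the heat shock factor HSF1 and 12 of 20 heat shock genes were called positive in the authors' deposited table and 0 negative, with 1 negative at an unadjusted p under 0.05. HSPA6, a strictly inducible chaperone, had a log2 fold change of 2.64 ± 0.23 (SE) in the authors' deposited table, and the chaperone regulator BAG3 had 0.99 ± 0.14. Under the opposite reading every direction below turns around while sizes and p-values stay, so the direction of the heat shock genes is not a finding.

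Astrocytes and their precursors share a set of proteins that glioma cells keep to different degrees. GFAP, vimentin and nestin build intermediate filaments, SLC1A3 clears glutamate from around synapses, FABP7 carries fatty acids in radial glia, S100B binds calcium, and SOX2 and OLIG2 are transcription factors of neural precursors and of the oligodendrocyte lineage. CD44, the receptor for the matrix polymer hyaluronan, and CHI3L1, a secreted chitinase-like protein also called YKL-40, mark the mesenchymal state of glioblastoma, as vimentin does.

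Of the 10 markers, 4 fell with YZ129 (SLC1A3, NES, VIM and CD44), 4 did not pass the test (GFAP, FABP7, OLIG2 and CHI3L1), and S100B and SOX2 had too few reads to be given an adjusted p in the authors' deposited table. None of the 8 tested markers was called higher by the authors' fit, and 1 of them, OLIG2, was positive at an unadjusted p under 0.05. The 8 tested markers had a median log2 fold change of -0.47 in the authors' deposited table, against -0.05 for all tested genes. The share called lower, 4 of 8, stands beside a background of 7.64%, and with 8 genes chosen by name it is given as a description.

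**Figure D1:**
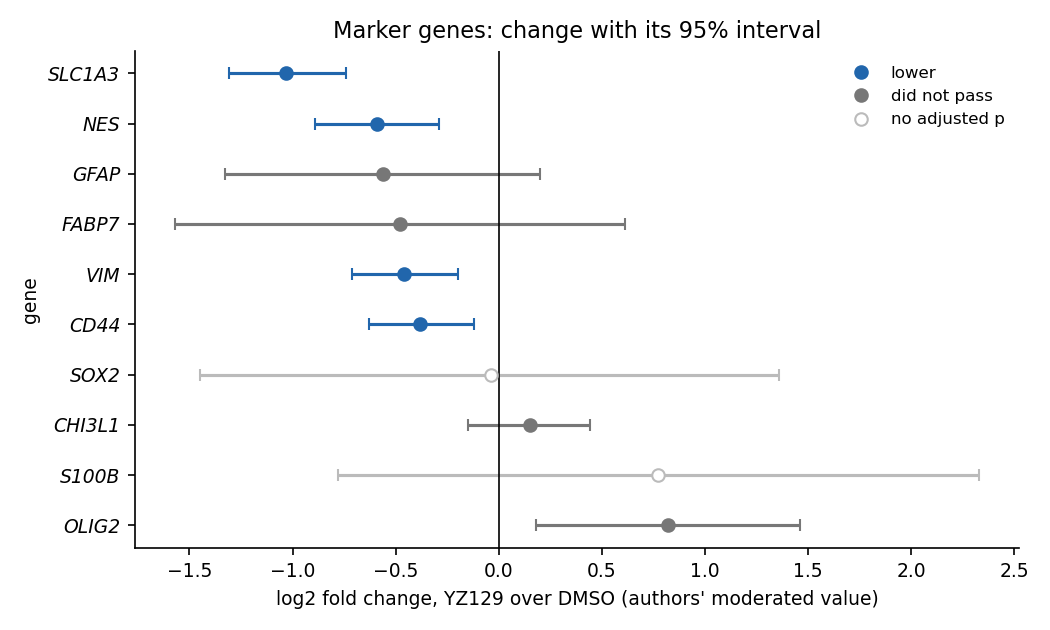
Log2 fold change (YZ129 over DMSO) of the 10 markers in the authors' deposited table, with points for the value and bars for the 95% interval from its standard error. SLC1A3, NES, VIM and CD44 lie below 0 and passed the test. The intervals of FABP7, S100B and SOX2 span more than 2 log2 units.

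The markers differed widely in level. Per kilobase of transcript, the authors' deposited table put VIM at 160003 normalized reads, the third highest of 13529 tested genes with a known length. CD44 stood at 23551 normalized reads per kilobase in the authors' deposited table (95th) and CHI3L1 at 2317 (1440th). SLC1A3 followed with 454 normalized reads per kilobase and NES with 164 in the authors' deposited table. The remaining markers were low in the authors' deposited table, with 32.9 normalized reads per kilobase for OLIG2, 15.1 for FABP7, 7.98 for GFAP, 1.3 for S100B and 0.339 for SOX2. The order of these levels is thus led by the mesenchymal markers, and the classical astrocyte markers GFAP and S100B, and the precursor factor SOX2, were at its end. Each marker in the order was at least 1.89 times the next, FABP7 over GFAP being the closest pair. That pair depends on the transcript lengths used, 1026 bases for FABP7 and 6538 for GFAP. Before division by length GFAP was the higher, with a mean level of 52.2 normalized reads against 15.5 for FABP7. Which transcripts the cells made was not measured, and whether neighbours differ beyond the spread between libraries cannot be told from a mean.

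**Figure D2:**
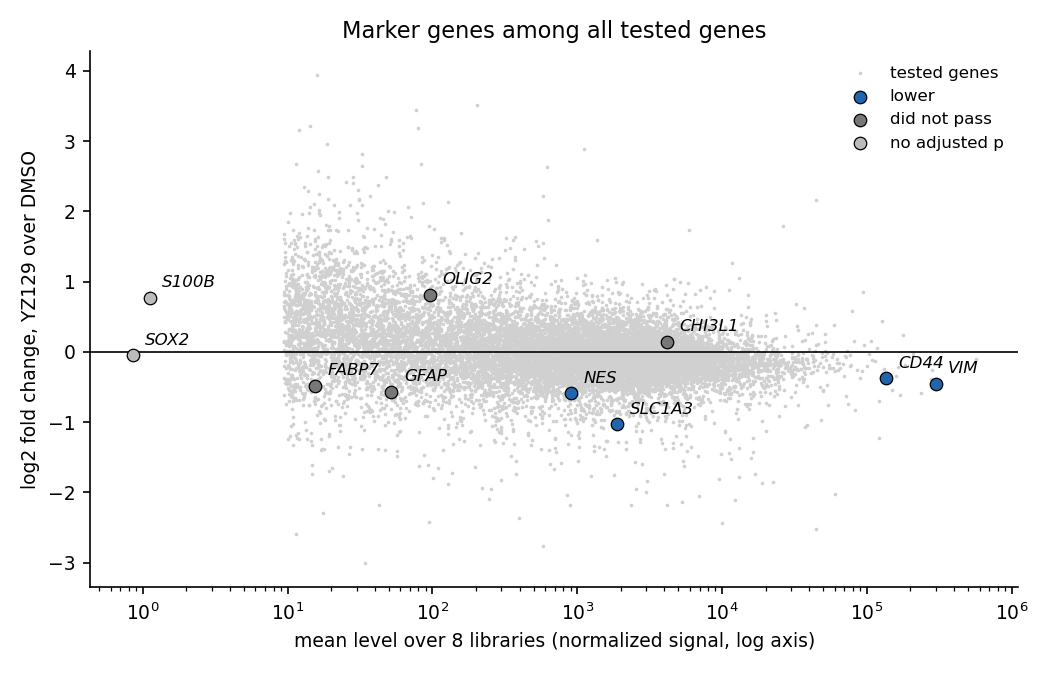
Log2 fold change (YZ129 over DMSO) against mean level over 8 libraries (normalized reads, log axis) in the authors' deposited table, with the 10 markers named over all tested genes. The markers span from 0.851 (SOX2) to 298885 (VIM) normalized reads, and the 4 that fell are among the 5 most abundant.

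SLC1A3, the glutamate and aspartate transporter of radial glia and astrocytes (also called EAAT1 or GLAST), changed most among the markers that passed. Its log2 fold change was -1.03 ± 0.15 in the authors' deposited table (95% interval -1.31 to -0.74, adjusted p of the authors' fit 2.47e-10), which is 2.04-fold lower with YZ129. Only 1.3% of all tested genes had a lower value in the authors' deposited table. NES, nestin, the filament protein of neural stem cells, was 1.51-fold lower (log2 fold change -0.59 ± 0.15, adjusted p of the authors' fit 0.00201) in the authors' deposited table. VIM, vimentin, was 1.37-fold lower in the authors' deposited table (-0.46 ± 0.13 on the log2 scale, adjusted p of the authors' fit 0.00659). CD44 was 1.3-fold lower in the authors' deposited table (-0.38 ± 0.13 on the log2 scale, adjusted p of the authors' fit 0.0346). RNA was measured in bulk, so fewer cells that carry a transcript and less of it per cell cannot be told apart.

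The falls of VIM and CD44 were the small ones, and they depended on the reference point. The median log2 fold change fell with abundance in the authors' deposited table, from 0.32 in the lowest of 10 equal bins of mean level to -0.16 in the highest, where VIM and CD44 are. Measured against the median of genes of like level, VIM was at -0.30 (adjusted p 0.126) and CD44 at -0.22 (adjusted p 0.321), and neither passed. Against the median of all tested genes CD44 was at -0.33 (adjusted p 0.0803) and did not pass, while VIM did. SLC1A3 and NES passed under both.

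Because the series title names NFAT, the 250 bases before the start of each marker were searched in both strands for the core letters of its site, GGAAA, for the core ACGTG of hypoxia response elements and for the GC box GGGCGG. RefSeq start sites (build GRCh38.p14) were matched for 7 of the 10 markers, all except GFAP, OLIG2 and S100B. The windows of SLC1A3, NES and VIM are shown as 3 of the 4 markers that fell, those with a window outside the GENCODE transcripts of the same gene; the window of CD44 and those before the other 2 starts of SLC1A3 lie within them. In each window the letters GGAAA, or TTTCC where the match is on the other strand, are in capitals. Each is printed 5′ to 3′ in the direction of the gene.
SLC1A3, chr5:36596338-36596587, plus strand, before the most upstream of its 3 start sites: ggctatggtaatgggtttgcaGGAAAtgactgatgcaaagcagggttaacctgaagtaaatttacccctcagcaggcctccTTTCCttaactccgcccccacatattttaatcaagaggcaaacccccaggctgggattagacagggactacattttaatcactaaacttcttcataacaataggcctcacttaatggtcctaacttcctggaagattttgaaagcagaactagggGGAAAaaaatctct
NES, chr1:156677408-156677657, minus strand: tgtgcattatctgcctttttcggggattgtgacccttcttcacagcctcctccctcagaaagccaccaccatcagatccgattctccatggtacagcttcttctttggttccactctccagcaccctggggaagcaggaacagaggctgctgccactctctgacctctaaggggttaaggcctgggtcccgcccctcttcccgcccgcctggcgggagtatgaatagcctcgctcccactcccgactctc
VIM, chr10:17227991-17228240, plus strand: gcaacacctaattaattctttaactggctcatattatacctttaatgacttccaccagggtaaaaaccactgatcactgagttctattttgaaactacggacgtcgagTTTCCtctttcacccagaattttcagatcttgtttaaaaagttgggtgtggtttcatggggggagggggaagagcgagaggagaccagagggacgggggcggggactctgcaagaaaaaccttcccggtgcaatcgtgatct

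The printed SLC1A3 window, whose start site lies 9767 bases upstream of the start of the GENCODE principal transcript, held 3 matches to GGAAA. The windows before its start sites 251 and 599 bases downstream of that start held 3 and 0. The VIM window, whose start site lies 1037 bases from the start of the GENCODE principal transcript, held 1. The NES window held 0, and so did the window before the start of CD44, which is not printed. These letters occur in 55.6% of the 35116 windows of the same length before RefSeq starts, so their presence sets none of the windows apart. The GC box was found in 42.6% of all windows, and it occurred 1 time in the printed SLC1A3 window, 0 times in the other windows of SLC1A3, 2 times for NES, 1 time for VIM and 2 times for CD44. ACGTG was found in 18.5% of all windows, 1 time before CD44 and 1 time before the most downstream start of SLC1A3, but not in the 3 windows printed. A match is a description of letters and says nothing of binding.

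The third filament marker, GFAP, the main filament of mature astrocytes, had a mean level of 52.2 normalized reads and a log2 fold change of -0.56 ± 0.39 in the authors' deposited table (95% interval -1.33 to 0.20, adjusted p of the authors' fit 0.381). The interval holds the value of NES and also 0, so a change of the size seen for NES was not detectable at this depth. Among 10 other tested intermediate filament genes, SYNM, the bridging filament protein synemin, rose (1.21 ± 0.41 on the log2 scale, mean level 38.4) and LMNB1, a lamin of the nuclear envelope, fell (-0.68 ± 0.14) in the authors' deposited table. The abundant lamins LMNA (-0.37 ± 0.14) and LMNB2 (-0.04 ± 0.14) did not reach the threshold in the authors' deposited table, and the median of the 10 log2 fold changes was 0.03.

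CHI3L1 was the abundant marker that did not pass. Its log2 fold change was 0.15 ± 0.15 in the authors' deposited table (95% interval -0.15 to 0.44, adjusted p of the authors' fit 0.595). That interval lies above the values of VIM and CD44, the other 2 abundant mesenchymal markers, although the difference between these genes was not tested. Of 7 tested relatives and receptors of CHI3L1, 0 were called by the authors' fit and 1 was negative at an unadjusted p under 0.05. The interleukin-13 receptor chains IL13RA1 and IL13RA2, the second of which also binds CHI3L1, had log2 fold changes of -0.34 ± 0.13 and 0.22 ± 0.16 in the authors' deposited table and did not pass.

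OLIG2, the transcription factor that specifies oligodendrocytes and is widespread in gliomas, had the highest estimate among the tested markers. Its mean level was 96.2 normalized reads and its log2 fold change 0.82 ± 0.33 in the authors' deposited table (95% interval 0.18 to 1.46), with an unadjusted p of 0.0124 and an adjusted p of 0.079, so it did not pass. SOX2, which keeps neural precursors in a stem-like state, had a mean level of 0.851 and a log2 fold change of -0.04 ± 0.72 in the authors' deposited table, with no adjusted p. SOX2 lies within the noncoding gene SOX2-OT, whose own log2 fold change was -0.80 ± 0.64 (adjusted p of the authors' fit 0.466, mean level 18.4) in the authors' deposited table. The sources used here do not give how reads in the overlap were assigned, so reads of the 2 genes may be mixed.

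At low mean levels the whole reads behind a value could be recovered, since each mean is a sum of whole reads times a fixed step per library. All 61 genes of the lists used here with a mean level under 16 had exactly 1 solution. Of 41 with a read ratio and a deposited log2 fold change over 0.1 in size, all 41 had the same sign in both. The deposited folds come from the same reads, and the side of each library was read from their signs. The match therefore checks the recovery of reads only, and neither which group is which nor whether a gene changed. FABP7 had 27 and 12 reads in the YZ129 libraries and 26 and 27 in the DMSO libraries, or 23.1 and 11.8 against 22.4 and 29.1 after division by the size factors. The groups overlapped, with 1 YZ129 library low and the other between the DMSO libraries. The authors' deposited table gave FABP7 a log2 fold change of -0.48 ± 0.56 (adjusted p 0.642).

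S100B had 6 reads in one YZ129 library and 1 in the other, against 1 and 1 with DMSO. Its single high library carried the positive log2 fold change of 0.77 ± 0.79 in the authors' deposited table, and the ratio of pooled S100B reads was 3.36 with a 95% exact interval of 0.639 to 33.1, which covers counting error only. SOX2 had 1 and 0 reads with YZ129 and 0 and 1 with DMSO, and its other 5 reads came from the 4 libraries outside the comparison. At 10 reads for S100B and 7 for SOX2 over all 8 libraries, no change of either could be seen at this depth.

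**Figure D3:**
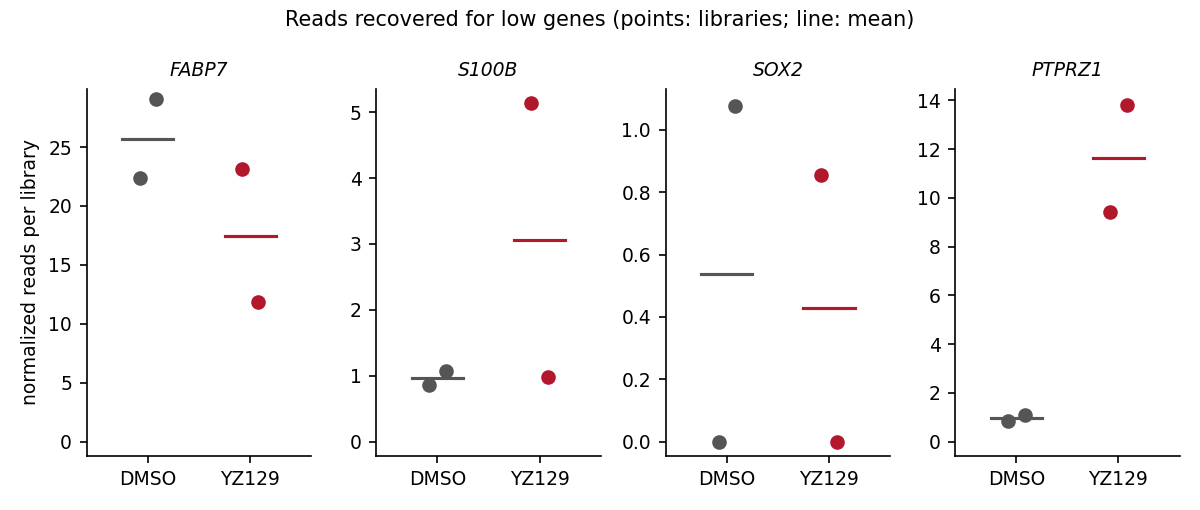
Reads recovered for 4 low genes, divided by the size factor, in each library of the comparison (points, 2 per group; line: mean), with groups read as YZ129 and DMSO. FABP7 overlaps between the groups, S100B is high in 1 YZ129 library (5.14 against 0.987 in the other), SOX2 has a read in 1 library of each group, and PTPRZ1, shown for contrast, is higher in both YZ129 libraries.

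The other genes of each marker's pathway were described in the same way, and a gene with no row or no adjusted p was not counted. The counts of each list are to be read beside the shares of all tested genes, 7.64% lower and 5.24% higher. The lists are short and were chosen by name, so their counts are given as a description. SLC1A3 belongs to the genes of glutamate handling, of which 14 others were tested: 4 fell, 1 rose and their median log2 fold change was -0.07 in the authors' deposited table. SLC1A1, the glutamate transporter EAAT3, fell too (-1.08 ± 0.16 on the log2 scale) in the authors' deposited table. SLC1A4, an exchanger of small neutral amino acids in the same family, was also lower (-0.51 ± 0.14), as did the glutamine carrier SLC38A2 (-0.73 ± 0.21), in the authors' deposited table. GLUD1, glutamate dehydrogenase, fell (-0.39 ± 0.13) in the authors' deposited table, but it shares sequence with its copy GLUD2, so its reads may be split. SLC3A2, the heavy chain of the cystine and glutamate exchanger, rose (0.62 ± 0.15) in the authors' deposited table. SLC7A11, the other chain of that exchanger, was at -0.00 ± 0.44 (mean level 6263) and did not pass. It was added after its value was seen. SLC1A5 (-0.13 ± 0.14) and SLC38A1 (-0.01 ± 0.19), both abundant glutamine carriers, did not reach the threshold in the authors' deposited table. SLC1A2, the main astrocyte transporter of the adult brain, had a mean level of 59.1 and 0.63 ± 0.38 in the authors' deposited table, and GLUL, which turns glutamate into glutamine, had 0.34 ± 0.14, neither passing; both were singled out after their values were seen.

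Of 14 other astrocyte markers tested, 4 fell and the other 10 did not pass, with a median log2 fold change of -0.12 in the authors' deposited table. ALDOC, the brain aldolase, was 2.78-fold lower; its log2 fold change was -1.48 ± 0.17 in the authors' deposited table. SOX9, a transcription factor of the switch to glia, fell by 0.94 on the log2 scale (SE 0.19) and the matrix protein SPARC fell by 0.58 (SE 0.13) in the authors' deposited table. The abundant TNC (0.12 ± 0.14) and CLU (0.06 ± 0.16), a matrix protein and a secreted chaperone, did not reach the threshold in the authors' deposited table. ALDH1L1, a marker of most mature astrocytes, had 18 reads over all 8 libraries, and the water channel AQP4 had no row.

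Of 23 tested regulators of glial fate 7 fell and 2 rose, with a median log2 fold change of -0.30 in the authors' deposited table. The ID genes, inhibitors of basic helix-loop-helix factors and targets of BMP signalling, all fell, with ID1 at -1.40 ± 0.14, ID3 at -1.27 ± 0.15, ID4 at -1.27 ± 0.27 and ID2 at -1.0 ± 0.17 in the authors' deposited table. Of the nuclear factor I family, which switches on astrocyte genes, NFIB (-0.97 ± 0.18), NFIX (-0.67 ± 0.14) and NFIC (-0.66 ± 0.15) fell in the authors' deposited table. NFIA, at -0.50 ± 0.26 (adjusted p 0.213), did not reach the threshold in the authors' deposited table. BMP2, the ligand of that signal, rose (1.34 ± 0.18), and so did CREBBP, a histone acetyltransferase (0.61 ± 0.16), in the authors' deposited table. ID4, NFIC, CREBBP and NFIA lay outside the rule for named genes and were chosen after their values were seen.

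**Figure D4:**
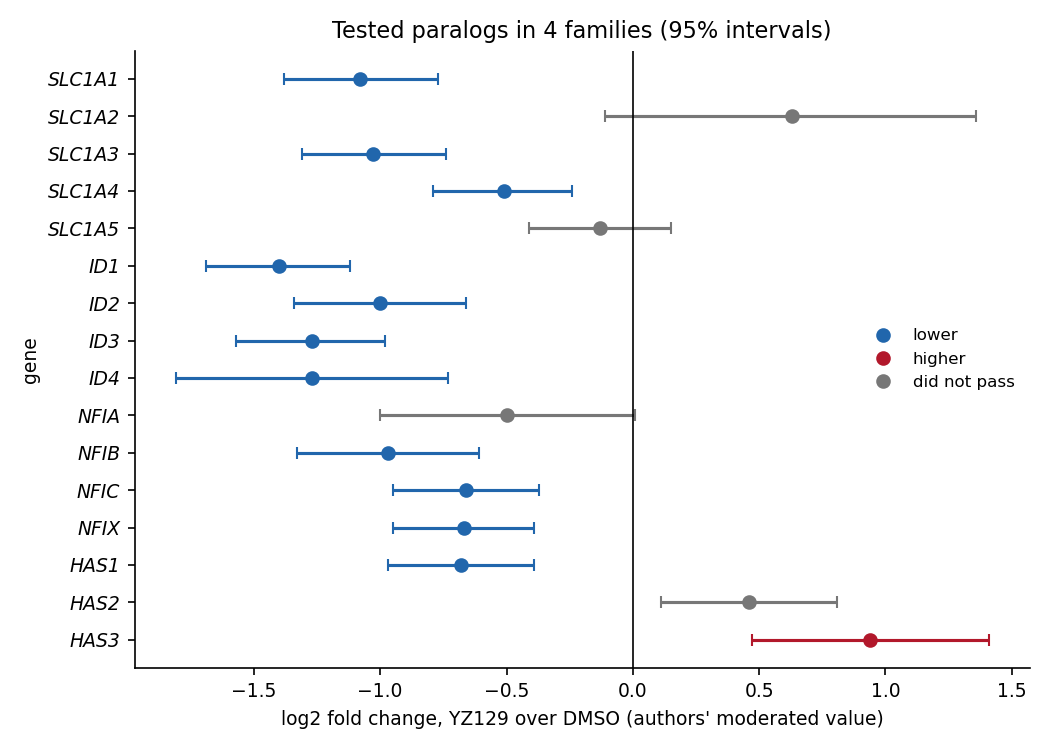
Log2 fold change (YZ129 over DMSO) of tested members of the SLC1A, ID, NFI and HAS families in the authors' deposited table, coloured by whether they passed, with 95% intervals from the standard error. The ID family sits between -1.40 and -1.0, while HAS1 and HAS3 lie on opposite sides of 0.

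NES and SOX2 stand among stem and progenitor genes. Of 17 others tested, 4 fell and 13 did not pass, with a median log2 fold change of -0.20 in the authors' deposited table. SOX4, a SOX factor of immature cells, fell by 1.05 (SE 0.28), SALL1 fell by 0.58 (SE 0.14), the surface protein CD9 fell by 0.57 (SE 0.14) and the histone methyltransferase EZH2 fell by 0.47 (SE 0.14), all on the log2 scale, in the authors' deposited table. The Notch receptors had positive values, with NOTCH2 at 0.37 ± 0.16 and NOTCH1 at 0.47 ± 0.18 in the authors' deposited table, neither passing.

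Around OLIG2, 8 genes of the oligodendrocyte lineage were tested, of which 3 fell and 1 rose, with a median of -0.23 in the authors' deposited table. CSPG4, the NG2 proteoglycan of precursors, was at -0.58 ± 0.15, and the myelin enzymes CNP (-0.45 ± 0.15) and UGT8 (-0.48 ± 0.17) were lower too, in the authors' deposited table. PDGFRA, the growth factor receptor of the same precursors, rose by 0.57 ± 0.20 (mean level 261) in the authors' deposited table. The call of PDGFRA was lost at an adjusted p under 0.01, with no level filter and against the median of genes of like level. SOX10, the partner of OLIG2 in that lineage, had 11 reads over all 8 libraries, and BCAN (0.28 ± 0.20) and MBP (0.38 ± 0.35) did not reach the threshold in the authors' deposited table.

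VIM, CD44 and CHI3L1 are counted among mesenchymal markers. All 27 other genes of that list were tested; 6 fell, 21 did not pass and the median was -0.22 in the authors' deposited table. Those that fell were the transcription factors BHLHE40 (-0.66 ± 0.14), TWIST1 (-0.80 ± 0.19) and FOSL2 (-0.41 ± 0.15), the Hippo coactivator WWTR1 (-0.93 ± 0.20), the fibronectin receptor chain ITGA5 (-0.47 ± 0.14) and the galectin LGALS1 (-0.49 ± 0.16) in the authors' deposited table. The master regulators STAT3 (0.21 ± 0.14) and CEBPB (0.15 ± 0.14), added after their values were seen, and the abundant FN1 (-0.03 ± 0.14) did not reach the threshold in the authors' deposited table. LGALS1, like CD44 and VIM, did not pass against the median of genes of like level (-0.33), nor did ITGA5 (-0.31) or FOSL2 (-0.26).

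CD44 binds hyaluronan, and the hyaluronan synthases split. HAS1 fell by 0.68 (SE 0.15), HAS3 rose (0.94 ± 0.24) and HAS2, the most studied of them and chosen after its value was seen, was at 0.46 ± 0.18 (adjusted p 0.0669) in the authors' deposited table. SRGN, the proteoglycan that also binds CD44, fell by 0.88 on the log2 scale (SE 0.16) in the authors' deposited table. In all, 2 of 21 tested partners of CD44 fell (9.52%) and 1 rose (4.76%), with a median of -0.16 in the authors' deposited table. These shares are near those of all tested genes, 7.64% lower and 5.24% higher. MSN, which ties CD44 to actin, was at -0.20 ± 0.14 and the protease MMP14 at 0.19 ± 0.14, and neither passed in the authors' deposited table.

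The share of calls among relatives of S100B and FABP7 is to be read against the background of 12.9% in either direction. Of 11 tested S100 genes, S100A3 fell (-0.63 ± 0.22, adjusted p 0.0381) and the other 10 did not reach the threshold in the authors' deposited table, and S100A6 was at -0.10 ± 0.17. Of 4 tested relatives of FABP7, FABP5, the fatty acid binding protein of many tumours, rose (0.45 ± 0.15) and 3 did not reach the threshold in the authors' deposited table. The S100 genes had a median of -0.17 and the FABP relatives a median of -0.15 on the log2 scale in the authors' deposited table.

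Centring on the median of genes of like level ended further calls, with values of 1.04 for SYNM, -0.24 for GLUD1, -0.37 for EZH2, -0.33 for CNP, -0.38 for UGT8 and 0.52 for PDGFRA on the log2 scale. Under the same centring NOTCH1 (0.57), NOTCH2 (0.53), HAS2 (0.55) and GLUL (0.45) passed. S100A3, at -0.58 against the median of all tested genes, did not pass there.

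**Figure D5:**
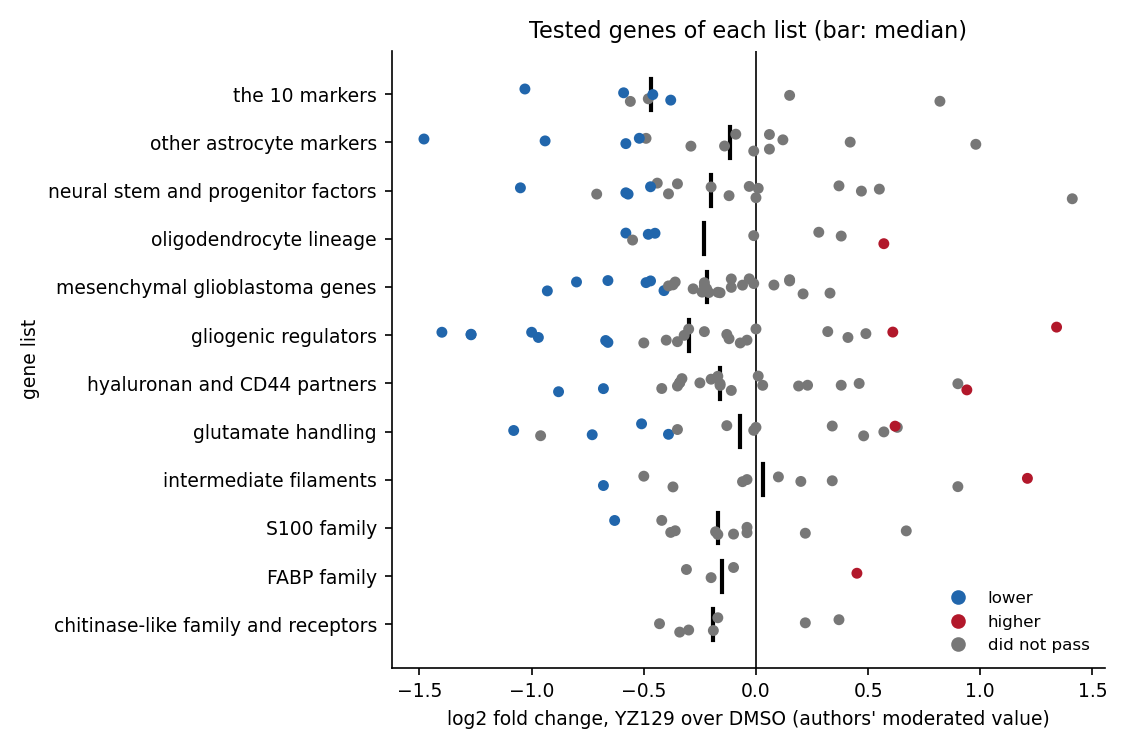
Log2 fold change (YZ129 over DMSO) of every tested gene of the markers (8 of 10) and of 11 related lists in the authors' deposited table, 1 row per list, with blue and red points for genes that fell or rose, grey points for those that did not pass, and a bar at the median. The medians shown run from -0.47 for the markers to 0.03 for the intermediate filaments.

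Markers commonly used for other cell types were looked at in the same table, and bulk RNA does not tell which cells made them. Of 5 tested microglia and blood genes LCP1 rose (0.69 ± 0.15) in the authors' deposited table, and it is also expressed by many tumour lines. CD68 was abundant in the authors' deposited table (mean level 12821, log2 fold change -0.18 ± 0.17) and did not pass. CSF1R, with a mean level of 449, was at -0.55 ± 0.20 (adjusted p of the authors' fit 0.0505) and did not pass either. The leukocyte antigen PTPRC had 19 reads over all 8 libraries. Of 7 tested endothelial and pericyte genes PDGFRB fell (-0.98 ± 0.16), as did CSPG4, in the authors' deposited table. Of 6 tested epithelial genes 0 were called by the authors' fit and 0 had an unadjusted p under 0.05. Of 9 tested fibroblast and smooth muscle genes COL1A1 fell (-1.15 ± 0.15), PDGFRB fell and TAGLN rose (1.16 ± 0.22) in the authors' deposited table. Of 7 tested neuron genes TUBB3 (-1.84 ± 0.16), SNAP25 (-1.43 ± 0.17) and GAP43 (-1.06 ± 0.23) fell in the authors' deposited table. The other 4 were not called by the authors' fit. MAP2 (mean level 1627) was at -0.04 ± 0.20 in the authors' deposited table. GAD1 (mean level 421) was at 0.47 ± 0.17 (adjusted p of the authors' fit 0.0511). SYT1 was at 0.04 ± 0.19 (mean level 408) and SYP at 0.66 ± 0.37 (mean level 46.4), both added after their values were seen. The neuronal defining genes RBFOX3 and DCX, which had no adjusted p, had mean levels of 3.90 and 2.18 normalized reads. The part of other cell types in the changes of the glial markers was not tested.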

How the data were processed

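Poly(A) RNA of 4 samples of U87 cells, grouped by their titles, was sequenced. Per the submitters' processing notes the build was hg19 and the tools Cuffdiff, Cufflinks 2.2.1 and TopHat2 2.0.12, with no role stated; read counter and annotation: not given in the sources used here. Per the file headers, the authors' deposited table holds for each gene the mean level (a signal: reads over size factors), the log2 fold change and its SE, the Wald score, and p-values before and after adjustment. The score equalled the fold change over its SE, and the adjusted p-value a Benjamini-Hochberg adjustment over 14812 genes. The other 4937, with mean levels of 9.43 or less, had none. The median SE was 0.16 at mean levels of 1000 or more and 0.45 below 100. Total reads per library were not analysed here.

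Computed here were 95% intervals (normal), levels per kilobase from the median length of GENCODE 29 principal transcripts, counts and medians per list, and reads per library: 8 steps read off 1333 genes with few reads were used to solve each mean level under 16 for whole reads (tolerance 6e-14, at most 60 reads per library). A library's side was read from the sign of the deposited fold of genes with 2 reads in it alone; their size factors were 1.17 and 1.01 for YZ129 and 1.16 and 0.929 for DMSO. Steps and calls were tested on simulated data. Python 3.11.15, pandas 2.3.3, NumPy 2.4.6, SciPy 1.17.1 and Matplotlib 3.10.9 were used. Promoter windows came from RefSeq (GRCh38.p14).

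The markers, the 17 lists and the tests were chosen with earlier results of these data known. Named were all markers; of each list the called genes, or the 6 with the smallest adjusted p where more were called, and up to 2 of the highest mean level that did not pass; and of the heat shock list the 4 with the smallest adjusted p. Other names are said to be chosen after their values were seen, or stand for a marker that defines a cell type. Some genes that the rule names are not reported here. The calls are the authors', since the table has no values per library; for genes with recovered reads, exact counting intervals of the pooled ratio were computed and no further test was run. The 6 alternatives were an adjusted p under 0.01, a log2 fold change of at least 1 in size, no level filter, a mean level of at least 100, and centring on the median of all tested genes or of the bin of mean level (10 equal bins).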

Additional observations from a re-analysis of the deposited data

How the results depend on the processing

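No paired analysis was possible because the deposited table has no values per library, and reads recovered for 61 low genes carry no replicate number. The authors' calls could therefore not be refitted without a replicate or with another normalization; for those 61 genes a count test and leaving out a library were not run. At an adjusted p under 0.01 the called genes numbered 1144 in place of 1908, and the calls in either direction went to 1 for intermediate filaments (from 2), 0 for S100 genes (from 1), 0 for FABP relatives (from 1), 1 for the oligodendrocyte lineage (from 4) and 3 for mesenchymal genes (from 6). With a log2 fold change of at least 1 in size, 413 genes were called, and the markers called lower went from 4 to 1 (SLC1A3); the calls went to 1 each for intermediate filaments, glutamate handling (from 5), other astrocyte markers (from 4), stem and progenitor genes (from 4) and heat shock genes (from 12), to 5 for gliogenic regulators (from 9), and to 0 each for S100 genes, FABP relatives, the oligodendrocyte lineage, mesenchymal genes, CD44 partners (from 3), microglia and blood genes (from 1) and endothelial and pericyte genes (from 2). With no level filter S100 calls were 0. With a mean level of at least 100, intermediate filaments had 1 call and microglia and blood genes 2. Less the median of all tested genes, S100 genes had 0 calls and the oligodendrocyte lineage 2. Less the median of the bin of mean level (10 equal bins), the markers called lower were 2 (SLC1A3 and NES), and the calls were 1 for intermediate filaments, 1 for the oligodendrocyte lineage, 3 for mesenchymal genes, 5 for CD44 partners and 2 for microglia and blood genes. No called value turned its sign under any of the 6 alternatives. The causes were not tested. The depth limits OLIG2, GFAP, FABP7, S100B and SOX2, whose standard errors were 0.33 or more.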

Other observations

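PTPRZ1, a receptor phosphatase of radial glia and oligodendrocyte precursors, had no adjusted p in the authors' deposited table, where its mean level was 4.46 and its log2 fold change 2.27 ± 0.79. The recovered reads were 11 and 14 with YZ129 and 1 and 1 with DMSO. The ratio of pooled reads was 12 with a 95% exact interval of 2.99 to 104 that covers counting error only. With no level filter it passed. The gene was chosen after its values were seen, among 61 genes whose reads were recovered. Some low genes of other cell types, also chosen after their values were seen, had more reads with YZ129. CD14, a monocyte receptor, had 20 and 19 against 9 and 9. COL3A1, a fibrillar collagen, had 35 and 23 against 9 and 12. Neither passed the authors' fit (adjusted p 0.408 for CD14 and 0.151 for COL3A1). Other such genes had fewer reads with YZ129: SLC17A7, a neuron marker, had 5 and 2 against 6 and 5, and CX3CR1, a microglia marker, had 2 and 0 against 2 and 2. PROM1, the stem cell marker CD133, was also lower, with 12 and 7 reads with YZ129 and 17 and 15 with DMSO. The pooled ratio of PROM1, 0.569, had an exact interval of 0.305 to 1.04. The lowest of 10 bins of tested genes by mean level had a median log2 fold change of 0.32 in the authors' deposited table, and its part in these values was not tested.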
